A study of Mus musculus with 38 samples.

Results

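Erythroid and haem synthesis genes were followed in the whole bone marrow of 34 leukaemic and 4 normal mice. The genes named were 32, covering haem enzymes, the membrane skeleton, surface and membrane proteins, regulators, and cytosolic and maturation proteins. Members were all probe sets annotated to exactly 1 of these symbols, which gave 63 of the 45101 probe sets on the array and 29 of the 32 genes. Epb41, Ahsp and Bnip3l had no such probe set, so their RNA was not analysed here. In the mean of the 5 leukaemia cohorts 57 of the 63 probe sets were lower than in normal marrow and 0 were higher. Over all probe sets tested 8.83% were called lower and 15.6% higher. The falls of the members reached 400-fold for Alas2, while Nfe2 was lower by 1.42-fold.

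Red cells arise in the marrow from progenitors that commit to the erythroid lineage, fill with haemoglobin, lose their nucleus and leave for the blood. Haem, the iron-bearing ring of haemoglobin, is built by a chain of enzymes that starts and ends in the mitochondrion. The first step in erythroid cells is catalysed by Alas2, and the last, the insertion of iron, by Fech. The transcription factors Gata1 and Klf1 switch on these enzymes together with the globins and the proteins of the red cell membrane, which hold the cell in shape through a spectrin network anchored to ankyrin.

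RNA was measured with 1 Affymetrix whole-genome array per mouse in whole, unsorted and cryopreserved marrow cells. Leukaemic mice were C57BL/6 recipients of either sex that had been lethally irradiated and given syngeneic c-kit+ marrow progenitors infected with a retrovirus. There were 9 mice given MLL-AF1p, 8 given MLL-AF10, 5 given MLL-GAS7, 5 given MLL-AF9 and 7 given MLL-ENL as the oncogene. In each of these the front part of MLL is fused to a partner protein. Their marrow was taken at euthanasia, and the labels give neither the age nor the share of leukaemic cells. The 4 normal mice were wild type C57BL/6 of either sex, and their labels name no irradiation or transplant. Nothing in the labels says how the mice were divided into litters or days, so p-values measure the spread between these arrays.

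Levels are given as log2(intensity + 46.1), where the added constant is the 25th percentile of all values and every array was shifted to the same median. On this scale an intensity of 0 would lie near 5.53, so the folds of probe sets that approached this value are understated. A gene with several probe sets is represented by its brightest one, taken as the mean of the 38 arrays. A probe set was called where the adjusted p from limma, with Benjamini-Hochberg adjustment over 45037 probe sets, was under 0.05. The median intensity of an array lay between 129.2 and 208.3 for leukaemias, and between 160.1 and 184.9 for normal mice. The arrays also fell into 2 sets by 5 probe sets that were either bright or dim, which the labels do not mention. All 4 normal arrays and 18 leukaemias lay in set 2, and the other 16 leukaemias in set 1. Hybridisation controls were brightest on 5 arrays, namely normal 3 and 4 leukaemias.

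The promoters of 4 members are shown for their place in the comparison below. Alas2 and Hemgn had the largest falls, Klf1 encodes a factor that binds CACCC, and Ppox had the smallest fall of the haem enzymes. Sequences are the 250 bases before the gene's start, 5′ to 3′ on the gene's strand, from RefSeq on build GRCm38.p6. Capitals mark GATA motifs (AGATAA or AGATAG or TGATAA or TGATAG) and CACCC on either strand. The window of Alas2 lies at chrX:150547167-150547416 on the plus strand and that of Hemgn at chr4:46404184-46404433 on the minus strand. Klf1 has its window at chr8:84901732-84901981 on the plus strand, and Ppox at chr1:171281187-171281436 on the minus strand.
Alas2: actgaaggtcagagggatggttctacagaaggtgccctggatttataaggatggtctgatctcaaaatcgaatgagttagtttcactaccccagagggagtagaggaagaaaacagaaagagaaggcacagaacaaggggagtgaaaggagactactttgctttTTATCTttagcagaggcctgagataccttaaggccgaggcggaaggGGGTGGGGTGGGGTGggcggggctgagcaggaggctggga
Hemgn: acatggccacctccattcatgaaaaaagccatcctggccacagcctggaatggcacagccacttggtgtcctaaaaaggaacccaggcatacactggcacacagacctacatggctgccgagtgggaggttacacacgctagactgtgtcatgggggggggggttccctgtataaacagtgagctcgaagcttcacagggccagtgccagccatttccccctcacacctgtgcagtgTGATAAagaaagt
Klf1: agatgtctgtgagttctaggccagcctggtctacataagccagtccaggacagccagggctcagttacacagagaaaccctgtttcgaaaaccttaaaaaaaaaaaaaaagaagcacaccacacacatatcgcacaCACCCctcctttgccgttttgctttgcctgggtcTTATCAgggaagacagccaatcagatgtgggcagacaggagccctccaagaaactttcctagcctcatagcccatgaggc
Ppox: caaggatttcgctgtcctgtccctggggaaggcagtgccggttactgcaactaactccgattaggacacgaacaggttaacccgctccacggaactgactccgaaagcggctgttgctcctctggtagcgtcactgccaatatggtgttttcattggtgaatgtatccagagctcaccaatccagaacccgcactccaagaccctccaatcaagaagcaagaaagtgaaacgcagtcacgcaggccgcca
A GATA match lay in 1 copy in the windows of Alas2, Hemgn and Klf1, and CACCC in 3 copies in Alas2 and 1 in Klf1, with no overlap between the 2 motifs. Ppox held neither motif. A GATA match was held by 26.5% of all 32851 windows of RefSeq genes, and a CACCC match by 52.0%. Of the 34 windows of 25 member genes 16 (47.1%) held a GATA match and 21 (61.8%) a CACCC match. Some genes have several windows, and the 34 include those of Epb41, which had no probe set of 1 symbol. Such matches describe the letters of the window and say nothing of binding in these cells.

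The first comparison set the leukaemias against normal marrow. Over all 45037 probe sets 8.83% were called lower and 15.6% higher in the leukaemias, with a median log2 difference of 0.12. The 63 member probe sets had a median of -3.32, and the 29 genes, by 1 probe set each, had a median of -4.57 with 29 of 29 called lower. In 28 of the 29 genes all 34 leukaemias lay below all 4 normal arrays, and for Nfe2 33 of 34 did. The fall exceeded 8-fold in 23 genes and 32-fold in 11. How many of all probe sets lay apart in this way or passed these folds was not counted. In whole marrow, fewer cells of a type and less RNA per cell cannot be told apart. With values as deposited, without the shift of medians, the median of all probe sets was -0.01 and the share of calls that were lower was 51.6%, against 36.2% on the main scale and 44.8% after quantile normalization. The share of calls that were higher was 48.4% as deposited, 63.8% on the main scale and 55.2% after quantile normalization, and 57 of 63 member probe sets were lower on all 3 scales.

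**Figure D1:**
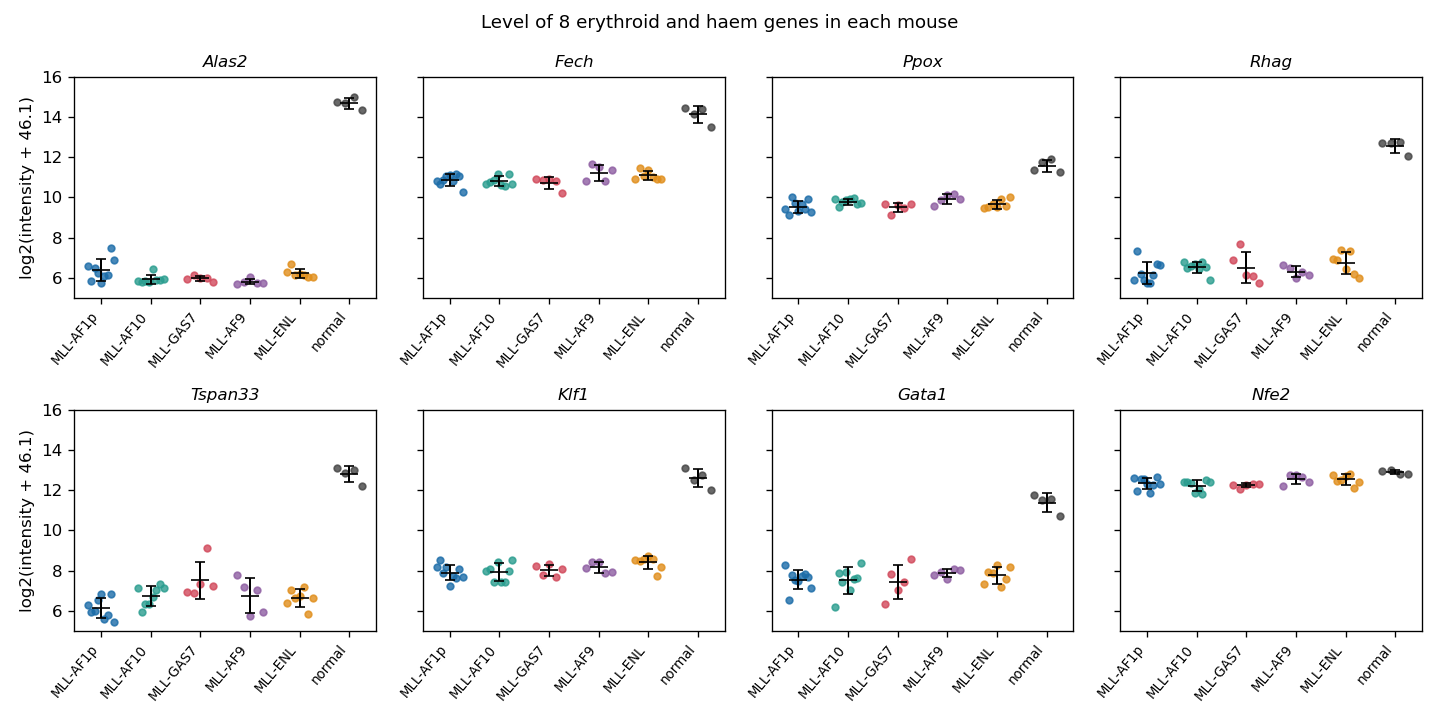
Level of 8 genes, as log2(intensity + 46.1), in each mouse of the 5 leukaemia cohorts and normal marrow, 1 point per mouse, with bars for the mean and SD. All leukaemias lie below all normal arrays except for Nfe2, where 33 of 34 do.

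Alas2, the erythroid form of the enzyme that starts haem synthesis, had the largest fall of the members. Its intensities ran from 5.6 through a median of 18.2 to 109 in the 34 leukaemias, against 29583, 26946, 22916 and 37345 in normal mice 1 to 4. As log2 levels the leukaemias ran from 5.69 through 5.99 to 7.49, and normal mice 1 to 4 lay at 14.75, 14.69, 14.34 and 15.00. In none of the 34 leukaemias did it exceed the median of its array, as it did in all 4 normal arrays. The log2 difference was -8.64 ± 0.18 (SE), or 400-fold, with an adjusted p = 3.4e-31 by limma. Leukaemia values thus reached down to the floor of the scale and the groups did not overlap.

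All 5 cohorts were low in Alas2, and their means spanned 0.58 on the log2 scale. In MLL-AF1p it ran from 5.75 through a median of 6.21 to 7.49, the highest being MLL-AF1p_809. In MLL-AF10 the lowest, median and highest were 5.76, 5.85 and 6.44, and in MLL-ENL 6.03, 6.14 and 6.70. The 5 MLL-GAS7 mice had 5.94, 6.14, 5.96, 5.98 and 5.79, and the 5 MLL-AF9 mice 5.69, 5.79, 6.01, 5.75 and 5.75. The fall was smallest in MLL-AF1p, at 319-fold, and largest in MLL-AF9, at 478-fold, both near the floor of the scale.

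The other 6 haem enzymes were lower by 3.69- to 12.9-fold. Cpox, which acts on coproporphyrinogen, had levels of 8.03, 8.99 and 10.03 (lowest, median and highest) in the leukaemias, against 12.69, 12.85, 12.29 and 12.86 in normal mice 1 to 4. Its difference was -3.69 ± 0.17 (SE). Alad, which joins aminolaevulinate into porphobilinogen, fell by 3.32 ± 0.20 (SE) on the log2 scale. It ran from 8.41 through 9.16 to 9.84 in the leukaemias, against 13.32, 11.80, 11.94 and 12.99 in normal mice 1 to 4, so the normal mice themselves spread over more than a unit.

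Fech, ferrochelatase, fell by 9.09-fold (-3.18 ± 0.16) in its representative probe set. Its levels were 10.21, 10.91 and 11.67 in the leukaemias, against 14.48, 14.14, 13.53 and 14.41 in normal mice 1 to 4. Urod, which removes carboxyl groups from uroporphyrinogen, was 6.29-fold lower and Uros, which closes the ring before it, 4.50-fold lower. Ppox, the oxidase before the last step, had the smallest fall of the enzymes, 3.69-fold (-1.88 ± 0.14, adjusted p = 1.57e-13 by limma). It ran from 9.12 through 9.68 to 10.19 in the leukaemias, against 11.35, 11.75, 11.27 and 11.92 in normal mice 1 to 4. Alad, Urod, Cpox, Ppox and Fech exceeded the median of their array in all 34 leukaemias, and Uros in 33. The median log2 difference of the 7 enzymes was -3.18, and of their 17 probe sets 15 were lower.

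Among proteins of the membrane skeleton, all 4 genes measured were lower, with a median of -3.78. Epb42, protein 4.2, which helps to fix the skeleton to the membrane, fell by 31.2-fold (-4.96 ± 0.18) and exceeded its array's median in none of the 34 leukaemias. Its level ran from 5.66 through 6.09 to 7.45 in the leukaemias, against 11.53, 10.81, 10.96 and 11.08 in normal mice 1 to 4. The highest leukaemia, MLL-AF10_798A, was one of the 5 arrays with bright hybridisation controls. Sptb, beta-spectrin, fell by 14.5-fold and Ank1, ankyrin, by 13.0-fold. Add2, beta-adducin, which joins spectrin to actin, was 2.10-fold lower (-1.07 ± 0.15) in the probe set that stands for it, and 4.77- to 15.5-fold lower in its other 4.

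Surface and membrane proteins had the largest median difference of the 5 roles, -5.88 over 9 genes, and all 14 of their probe sets were lower. Rhag, the Rh-associated glycoprotein, fell by 69.1-fold (-6.11 ± 0.25). It ran from 5.71 through 6.45 to 7.67 in the leukaemias, against 12.71, 12.73, 12.05 and 12.77 in normal mice 1 to 4. Its partner Rhd, the Rh blood group protein, fell by 24.5-fold, and Kel, the Kell blood group peptidase, by 46.5-fold. The tetraspanin Tspan33 was 66.8-fold lower, Tmcc2 63.1-fold, the water channel Aqp1 61.3-fold, the erythroid membrane protein Ermap 58.9-fold and the claudin Cldn13 53.1-fold. Their leukaemia levels stayed below 10 on the log2 scale in every mouse, and the lowest normal value among them was 11.73.

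Tfr2, transferrin receptor 2, which senses iron and pairs with the erythropoietin receptor, had the smallest fall of this role. Its level ran from 7.87 through 8.58 to 9.13 in the leukaemias, against 10.40, 9.69, 9.55 and 10.16 in normal mice 1 to 4. The fall was 2.70-fold (-1.43 ± 0.16, adjusted p = 3.46e-09 by limma), and the gene exceeded its array's median in all 34 leukaemias.

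**Figure D2:**
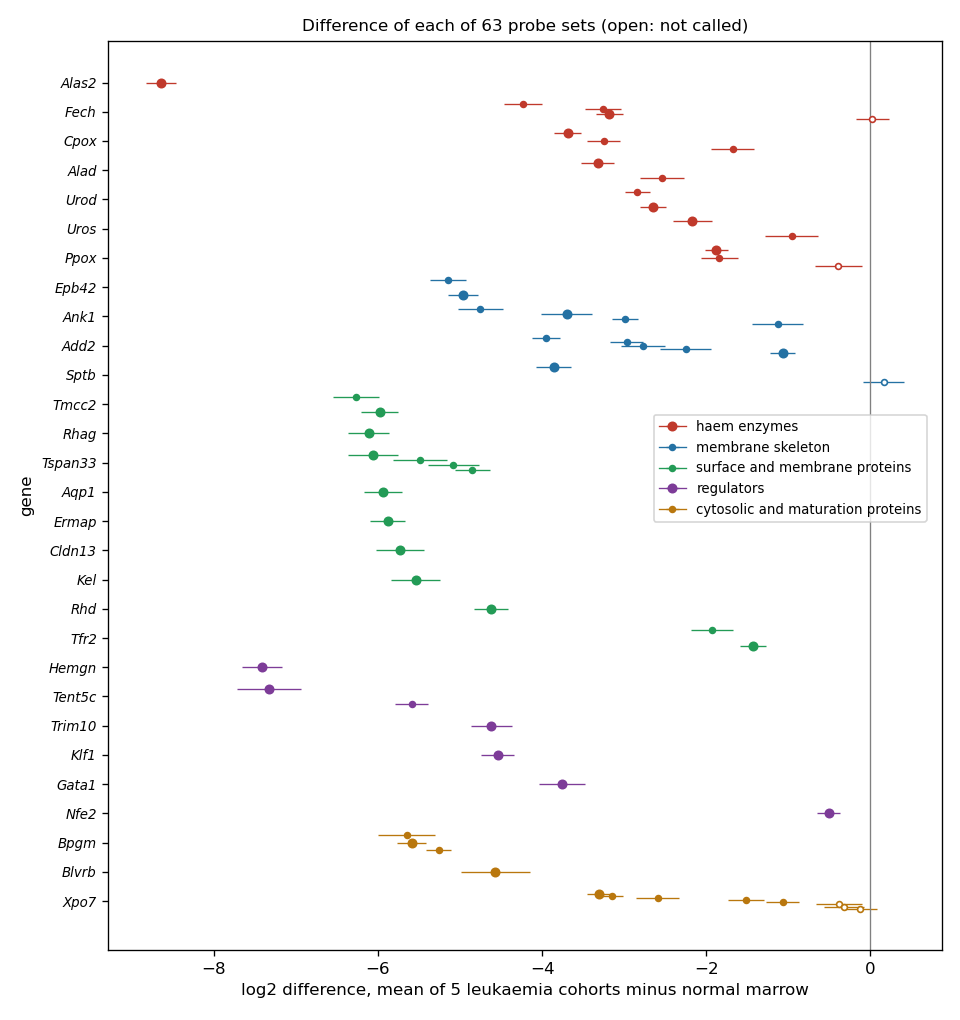
Log2 difference, mean of the 5 leukaemia cohorts minus normal marrow, of each of 63 member probe sets, with bars for the SE, large points for the probe set that represents its gene and open points for the 6 not called. Alas2 lies farthest to the left at -8.64, and the open points belong to Fech, Ppox, Sptb and Xpo7.

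The 6 regulators, by 1 probe set each, ran from -7.41 for Hemgn to -0.51 for Nfe2. Hemgn, a nuclear protein of blood-forming cells that Gata1 is known to activate, ran from 5.54 through 6.01 to 7.20 in the leukaemias, against 14.03, 13.51, 13.14 and 13.61 in normal mice 1 to 4. That was a fall of 170-fold (-7.41 ± 0.24, adjusted p = 2.02e-24 by limma). In the 5 MLL-GAS7 mice Hemgn lay at 6.75, 6.05, 5.65, 6.08 and 5.54, and in the 5 MLL-AF9 mice at 5.74, 6.58, 5.78, 5.75 and 5.90. Tent5c, a poly(A) polymerase, fell by 161-fold (-7.33 ± 0.39). It spread widely among the leukaemias, from 5.67 to 8.78 with a median of 6.20, against 13.90, 14.16, 13.14 and 14.06 in normal mice 1 to 4. The highest were MLL-AF1p_803 at 8.78 and MLL-AF1p_811 at 8.23, still below all normal arrays.

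Klf1, the Krüppel-like factor of red cell precursors, fell by 23.3-fold (-4.54 ± 0.20). It ran from 7.22 through 8.08 to 8.71 in the leukaemias, against 13.13, 12.52, 12.04 and 12.79 in normal mice 1 to 4. Gata1, the GATA factor of the erythroid and megakaryocyte lineages, ran from 6.19 through 7.70 to 8.57 in the leukaemias. In normal mice 1 to 4 it lay at 11.75, 11.51, 10.71 and 11.57. It fell by 13.5-fold (-3.76 ± 0.28), and 18 of 34 leukaemias were above the median of their array.

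Trim10, a RING-finger protein of late erythroid differentiation, ran from 6.77 through 7.50 to 7.95 in the leukaemias. Normal mice 1 to 4 had 10.02, 12.91, 12.42 and 13.00, so that normal mouse 1 stood apart from the other 3. The fall was 24.5-fold (-4.62 ± 0.25), and the log2 difference without normal mouse 1 was -5.31.

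Nfe2, the erythroid and megakaryocyte factor that works with a small Maf protein, differed least of the 29 genes. Its level ran from 11.82 through 12.41 to 12.83 in the leukaemias, against 12.97, 13.00, 12.81 and 12.84 in normal mice 1 to 4. The difference was -0.51 ± 0.14 (SE, adjusted p = 0.00553 by limma). Nfe2 was called lower in MLL-AF1p (-0.55), MLL-AF10 (-0.66) and MLL-GAS7 (-0.65), each against the same 4 normal arrays. In MLL-AF9 (-0.32, adjusted p = 0.226) and MLL-ENL (-0.36, adjusted p = 0.119, both by limma) it was not called. The difference of these 2 cohorts from the other 3 was not tested. In the F test over all 5 cohorts Nfe2 was not called (adjusted p = 0.36 by limma).

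Cytosolic and maturation proteins were represented by 3 genes, all lower, with a median of -4.57. Bpgm, which makes the bisphosphoglycerate that lowers the oxygen affinity of haemoglobin, fell by 48.1-fold (-5.59 ± 0.18). It ran from 7.30 through 8.10 to 8.66 in the leukaemias, against 13.98, 13.71, 12.95 and 14.08 in normal mice 1 to 4. Blvrb, biliverdin reductase B, fell by 23.7-fold (-4.57 ± 0.42) and had the widest spread of the 29 genes among the leukaemias, with an SD of 0.88. Its levels ran from 6.52 through 8.80 to 9.95 in the leukaemias, against 13.46, 12.98, 12.64 and 13.34 in normal mice 1 to 4. Xpo7, a nuclear export receptor needed as erythroid nuclei condense, fell by 9.95-fold and exceeded its array's median in all 34 leukaemias.

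Of the 63 probe sets, 6 were not called in this comparison. They were 1 of 4 for Fech (0.02 ± 0.20), 1 of 3 for Ppox (-0.39 ± 0.29), 1 of 2 for Sptb (0.16 ± 0.25) and 3 of 8 for Xpo7 (-0.38 ± 0.28, -0.32 ± 0.24 and -0.13 ± 0.21). The Fech one ran from 5.72 to 7.68 in the leukaemias and lay at 6.17, 5.74, 6.27 and 6.19 in normal mice 1 to 4, near the floor of the scale in both groups. These 4 genes had other probe sets that were called lower. Had probe sets been required to exceed the array median on at least 4 arrays, 57 would have been kept, among them all 29 that represent a gene. The 4 normal arrays alone can meet this, as they did for the 3 genes above it in none of the leukaemias. In Affymetrix names the endings _s_at and _x_at mark probe sets that may read related sequences. They stand for Fech, Urod, Tspan33 and Tmcc2, and each of these genes has another probe set without such an ending that was lower by 7.16- to 77.2-fold.

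The normal mice were not alike in these genes. Normal mouse 3 was the lowest of the 4 for 24 of 29 genes and lay 0.43 below the normal mean on average, while normal mouse 1 was the highest for 18. How the normal mice ranked over all probe sets was not counted. Normal mouse 3 is also one of the 5 arrays with bright hybridisation controls. When any of the 38 arrays was left out, the number of probe sets called lower stayed at 56 or 57. The part of these controls in the level of normal mouse 3 was not tested.

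Each cohort was then set against normal marrow. All 5 comparisons share the 4 normal arrays, so their values are given side by side. In MLL-AF1p 56 of the 63 probe sets were lower, where 8.04% of all probe sets were. MLL-AF10 had 57 lower (7.9% of all), MLL-GAS7 had 56 (6.52%), MLL-AF9 had 54 (6.36%) and MLL-ENL had 56 (7.37%). No member probe set was higher in any cohort. The median log2 difference over the 29 genes was -4.62 for MLL-AF1p mice, -4.70 for MLL-AF10 mice, -4.66 for MLL-GAS7 mice, -4.44 for MLL-AF9 mice and -4.21 for MLL-ENL mice. By role, the 9 surface and membrane genes had medians between -5.90 (MLL-AF10) and -5.47 (MLL-GAS7), and the 7 haem enzymes between -3.33 (MLL-AF10) and -2.90 (MLL-AF9).

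**Figure D3:**
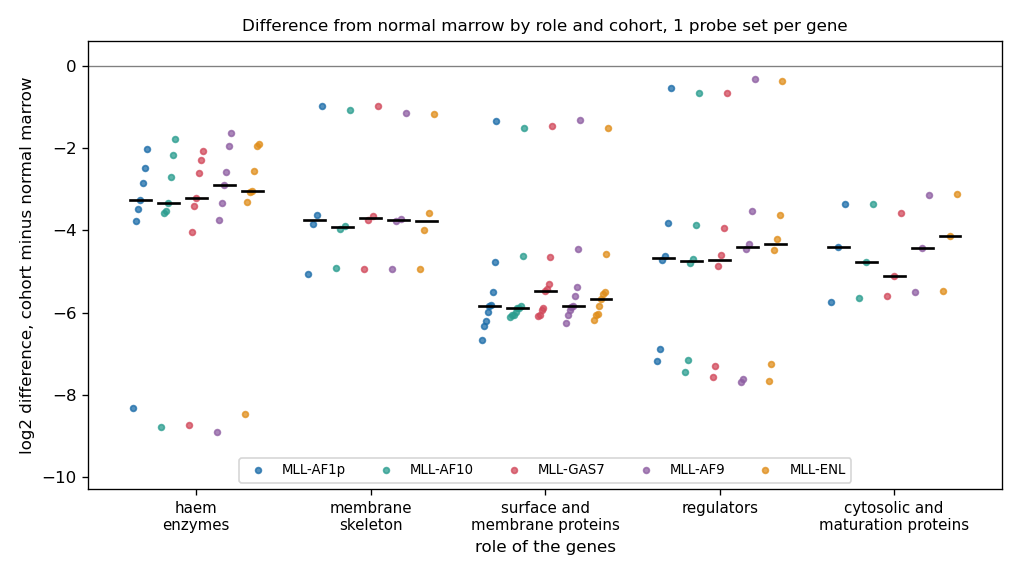
Log2 difference from normal marrow of the 29 genes, by role and by cohort, 1 point per gene with a bar for the median. In all 5 cohorts the 9 surface and membrane genes have the lowest median, between -5.90 and -5.47.

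The comparisons among the 5 cohorts do not use the level of normal marrow and ask whether the fusions differ in these genes. By the F test 0 of the 63 probe sets were called with limma, where 3.33% of all probe sets were. At an unadjusted p under 0.05 there were 11 of 63 (17.5%), a share near the 17.2% of all probe sets under the same threshold. The cohort means of a gene spanned between 0.15 (Epb42) and 1.38 (Tspan33) log2 units, with a median span of 0.45 over the 29 genes. Epb42, with a median intensity of 21.1 in the leukaemias, lay near the floor of the scale. The median SD between leukaemias was 0.39. MLL-AF9 and MLL-ENL each had the highest cohort mean in 11 of 29 genes, and MLL-AF1p the lowest in 9. Such counts were not made for all genes. Against the other 4 cohorts, all probe sets had a median difference of 0.01 in MLL-AF9, 0.05 in MLL-ENL and -0.01 in MLL-AF1p.

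Intervals were narrow enough to bound most differences on this scale. Near its floor the added constant narrows them, as in Alas2, with leukaemia intensities of 5.6 to 109 but levels of 5.69 to 7.49. For such genes the counts that follow bound the levels on this scale and not the RNA itself. Of 145 differences between a cohort and the mean of the other 4, 138 had a 95% interval within 1 log2 unit of 0, before any adjustment for their number. For 26 of 29 genes this held in all 5 cohorts. The exceptions were Tspan33, Tent5c and Blvrb. Tent5c differed most in MLL-AF1p (0.56, interval -0.02 to 1.13), and Blvrb in MLL-GAS7 (-0.67, interval -1.44 to 0.10).

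Against the mean of the other 4 cohorts, 1 member probe set was called in MLL-GAS7, where 1.87% of all probe sets were called in either direction. In the other 4 cohorts 0 were called with limma, beside 0.666% of all probe sets for MLL-AF1p, 0.24% for MLL-AF10, 0.211% for MLL-AF9 and 1.58% for MLL-ENL. The probe set called reads Tspan33, a tetraspanin found on erythroid precursors, and was higher in MLL-GAS7 by 1.04 ± 0.29 (SE, adjusted p = 0.0456 by limma). In this probe set the MLL-GAS7 mice had 6.66 (MLL-GAS7_406), 6.85 (MLL-GAS7_407), 7.21 (MLL-GAS7_405), 9.32 (MLL-GAS7_408) and 7.50 (MLL-GAS7_410). The other cohorts ran from 5.80 to 6.77 in MLL-AF1p, from 6.00 to 8.29 in MLL-AF10, from 5.95 to 7.66 in MLL-AF9 and from 5.94 to 6.65 in MLL-ENL, so MLL-GAS7 overlapped each of them except MLL-ENL. MLL-GAS7_408 was the highest of all 34 leukaemias in all 4 Tspan33 probe sets, with 9.15, 8.80, 9.32 and 8.19, and the highest of the others here, MLL-AF10_798A at 8.29, was an array with bright hybridisation controls. Without MLL-GAS7_408 the difference was 0.59 with an adjusted p = 0.317 by limma, and the call was lost. It was also lost without any 1 of 24 other mice, where the difference was at most 1.12 and the adjusted p, by limma, 0.051 to 0.115. The probe set that represents Tspan33 was higher in MLL-GAS7 by 0.95 ± 0.28 (SE) and missed the threshold, with an adjusted p = 0.0743 by limma.

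Among the haem enzymes the cohorts differed most in Cpox, which was 0.48 higher in MLL-ENL than in the other 4 (95% interval 0.20 to 0.76, adjusted p = 0.0617 by limma). Its cohort mean was 9.37 ± 0.36 (SD, n = 7) in MLL-ENL and lay between 8.63 and 9.10 in the other cohorts. Under several other settings this difference passed the threshold. The highest leukaemia for Cpox was MLL-ENL_742 at 10.03, and the other MLL-ENL mice ran from 8.98 to 9.60. In another Cpox probe set MLL-ENL also had the highest cohort median, 8.76. In the last Cpox probe set it did not, with a median of 6.80 against 7.26 in MLL-AF1p. Alas2 was 0.40 higher in MLL-AF1p than in the other cohorts (interval 0.14 to 0.67, adjusted p = 0.188 by limma), near the floor of the scale. The highest values were MLL-AF1p_809 at 7.49 and MLL-AF1p_803, an array with bright hybridisation controls, at 6.89. Cohort medians were 6.21 in MLL-AF1p and 6.14 in MLL-ENL.

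**Figure D4:**
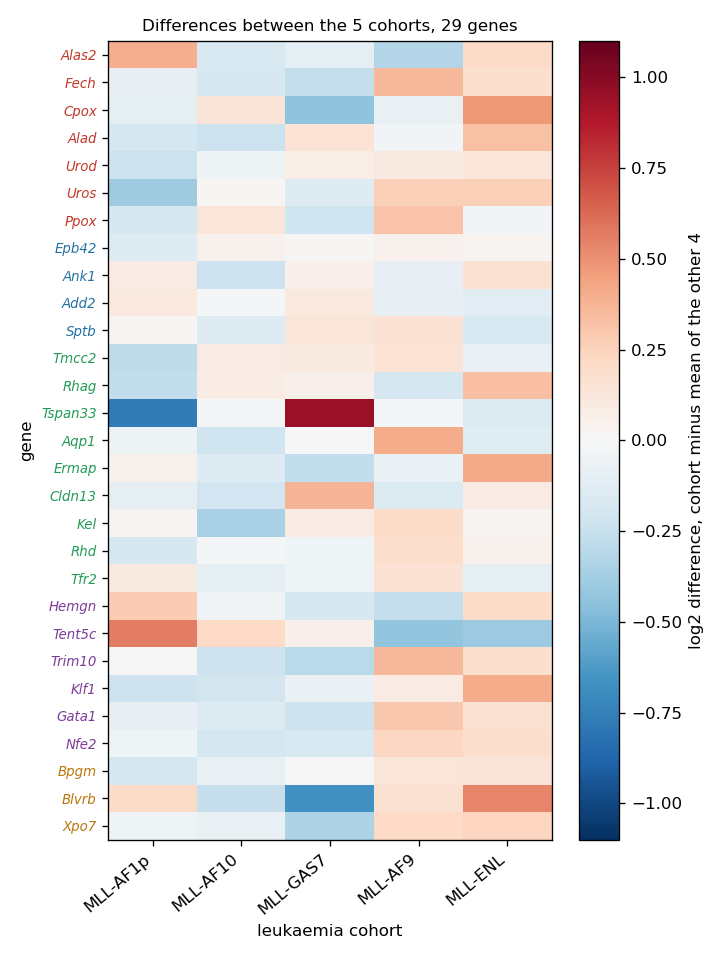
Log2 difference of each of 29 genes between a cohort and the mean of the other 4, red for higher and blue for lower in that cohort, with gene names coloured by role in the same colours as in the plot of all probe sets. Tspan33 in MLL-GAS7 is the strongest red, and 138 of the 145 differences have an interval within 1 log2 unit of 0. Differences near the floor of the scale are narrowed by the added constant.

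No leukaemia lay above the median of the 34 for all 29 genes. MLL-AF1p_809, MLL-AF9_308, MLL-ENL_701 and MLL-ENL_703 each lay above it for 22 of 29 genes, the most of any mouse. On average, in that order, they exceeded it by 0.25, 0.15, 0.10 and 0.21 log2 units. MLL-GAS7_407, an array with bright hybridisation controls, was the lowest leukaemia for 7 genes and lay 0.28 below the median on average.

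A further list of 45 genes with a known part in red cells gave a mixed picture. Of the 38 with a probe set of 1 symbol, 26 were lower and 5 higher in the leukaemias, with a median of -1.40. Over all probe sets 8.83% were called lower and 15.6% higher. The share of this list that was higher thus did not exceed that of all probe sets. Farthest below normal marrow lay Car2 (-7.63) and Car1 (-5.98), which are carbonic anhydrases, the anion exchanger Slc4a1 (-7.44), the factors Tal1 (-5.60) and Zfpm1 (-4.25), which act beside Gata1, and the actin-capping protein Tmod1 (-3.72). Higher were Lmo2 (0.60) and Lyl1 (1.25), of which the first bridges Tal1 to Gata1 and the other is a relative of Tal1. Also higher were the glucose transporter Slc2a1 (0.86) and the embryonic globin Hba-x (1.26), whose leukaemia levels of 5.94 to 7.96 lay near the floor of the scale.

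Alas1, the form of the first haem enzyme that cells of all kinds use, was higher in the leukaemias by 2.31-fold (1.21 ± 0.25, adjusted p = 2.32e-04 by limma). It ran from 11.69 through 12.71 to 13.80 in the leukaemias, against 11.08 to 12.19 in the normal mice, and 29 of 34 leukaemias lay above all 4. The 2 forms of the enzyme therefore differed from normal marrow in opposite directions. Of the 7 genes of this list not called, 5 were globins, named after their values were seen: Hba-a1 (0.31), Hba-a2 (0.44), Hbb-b2 (-0.68), Hbb-bh1 (-0.22) and Hbb-y (-0.07). Their probe sets of 1 symbol stayed below 9 in every leukaemia and in every normal mouse, where the highest was 8.70 for Hbb-b2. Since they were low in normal marrow too, these probe sets do not show whether globin RNA changed, and globin probe sets with several symbols were not used here.

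Markers of other marrow cells moved in the same comparison, in which 8.83% of all probe sets were called lower and 15.6% higher. The marker lists, here and below, were written with earlier results of these data known, so their counts are no independent evidence. The summed intensity of the 7 haem enzymes was 4528 to 7278 in the leukaemias, against 58051 to 100638 in the normal mice, and that of the 9 surface and membrane genes 956 to 1981 in the leukaemias, against 55249 to 93687. Megakaryocyte and platelet genes were lower in 10 of 11, with sums of 1834 to 3903 in the leukaemias against 26056 to 39149 in the normal mice. B cell genes were lower in 11 of 11, with sums of 1627 to 7493 in the leukaemias against 15559 to 31977 in the normal mice. Resident macrophage genes, some of which mark the macrophages of erythroid islands, were lower in 7 of 10 and higher in 1, with sums of 3911 to 12938 in the leukaemias against 8886 to 20686 in the normal mice.

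Neutrophil granule genes were lower in 5 of 8, beside 8.83% of all probe sets. Their sums were 15247 to 328157 in the leukaemias, against 163733 to 275335 in the normal mice, so these groups overlapped. For T and NK cells 7 of 8 genes were lower, with sums of 812 to 5159 in the leukaemias and 4593 to 6469 in the normal mice. Of 9 genes of leukaemia and myeloid progenitors 6 were higher and 0 lower, beside 15.6% and 8.83% of all probe sets. Their sums were 76606 to 196514 in the leukaemias, against 51803 to 112517 in the normal mice. Hoxa9, a known target of MLL fusions, was higher by 4.95 on the log2 scale. No marker had an intensity of 0 on any array. The 3′ to 5′ ratio of the actin controls was 0.15 to 0.646 (log2) in the leukaemias and 0.073 to 0.217 in the normal mice. The part of these cell types and of RNA quality in the falls of the erythroid genes was not tested.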

How the data were processed

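The authors deposited linear intensities of 45101 probe sets on 38 arrays, which a check of the values showed to have a trimmed mean of 500 on every array after 2% was removed at each end. Their software and summarisation are not given in the sources used here, and no detection calls were used. Probe sets were named through the platform annotation: 34945 had 1 symbol, 932 several and 9160 none, and 64 controls were left out. Values were converted to log2(intensity + 46.1), arrays were shifted to the same median and limma 3.58.1 (R 4.3.3) was used to fit 6 group means over all 45037 probe sets, with no filter on low values and 2-sided tests (32 residual degrees of freedom). SD is between mice and SE is from limma. The number of arrays limits the precision. Every member could be named. Of the other erythroid genes up to 6 with the largest change were named, and any that moved the other way. The members, lists and roles were chosen with earlier results of these data known. Alternatives changed the scaling, the filter, the constant (16 or 200), the variance trend, array weights and the probe sets per gene, added the bright hybridisation controls as a term or left out 1 array. Array set alternatives were added after the data were seen. The fit was tested on simulated data with known changes.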

Additional observations from a re-analysis of the deposited data

Results flagged for a closer look

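Within each cohort and the normal mice, single arrays were set against the rest of their group for the 29 genes by the Dixon gap test. Of 174 groups 18 had an array whose gap passed the 95% value. For independent and normally distributed values chance flags about 1 group in 20. Here some genes lie near the floor of the scale, and the 29 genes share the same arrays. The rate of flags over all genes was not counted, so an excess among the members cannot be read from this. Values are log2 levels, with the range of the rest of the group beside them.

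Higher than the rest were Alas2 in MLL-AF10_797A (6.44, against 5.76 to 5.95) and MLL-ENL_760 (6.70, against 6.03 to 6.28), Epb42 in MLL-AF10_798A (7.45, against 5.78 to 6.18) and Ank1 in MLL-GAS7_410 (9.13, against 8.05 to 8.31). Tspan33 in MLL-GAS7_408 was 9.15, against 6.87 to 7.33, Hemgn in MLL-AF9_308 was 6.58, against 5.74 to 5.90, and Tent5c in MLL-AF9_305 was 7.31, against 5.73 to 5.94.

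Lower than the rest was Uros in MLL-AF1p_810 (7.11, against 8.54 to 9.51). MLL-GAS7_407 was low for Urod (10.08, against 10.64 to 10.87), Rhd (7.29, against 8.39 to 8.82), Kel (5.77, against 7.17 to 7.59) and Cldn13 (6.28, against 6.98 to 7.19). MLL-GAS7_410 was low for Fech (10.21, against 10.84 to 10.91). Rhag was low in MLL-AF10_798A (5.88, against 6.43 to 6.78) and in normal mouse 3 (12.05, against 12.71 to 12.77). Aqp1 was low in MLL-AF1p_804 (6.09, against 7.02 to 7.58) and MLL-AF10_802A (6.07, against 6.98 to 7.45), and Trim10 in MLL-AF9_305 (7.29, against 7.78 to 7.95). MLL-GAS7_407, MLL-GAS7_410, MLL-AF10_798A and normal mouse 3 hold 9 of these 18 values and are among the 5 arrays with bright hybridisation controls. MLL-GAS7_407 also had a high median intensity, 206.8, so the shift of medians lowered its levels.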

How the results depend on the processing

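The 57 member probe sets called lower were 56 or 57 of 63 under every alternative that could test all 63 against normal mice. With 1 probe set per gene the count was 29 of 29, and behind the filter it was 55 of 57. The 4 normal arrays alone can pass a probe set through this filter, so the count behind it is no separate support. Between cohorts the few calls moved. In MLL-GAS7 against the others there were 2 as deposited, 0 with a constant of 200, 2 with the bright controls as a term (another Tspan33 probe set and one of Sptb), 0 in array set 1 alone and 0 to 2 when 1 array was left out. In MLL-ENL there was 1, Cpox in each case, behind the filter, with a constant of 200, with a variance trend, with array weights, with 1 probe set per gene and when the array set was a term, and 0 to 1 when 1 array was left out. The F test gave 1 with array weights and 0 to 1 when 1 array was left out. The Tspan33 difference in MLL-GAS7 was 0.18 in array set 1 and 0.51 with a constant of 200, was not called with the bright controls as a term (1.05, adjusted p = 0.0851 by limma), and its call was lost in 25 of 38 cases of 1 array left out. In array set 2, which holds MLL-GAS7_408, the difference was 1.59 and was called (adjusted p = 0.0407 by limma). With array weights it was 1.21 (adjusted p = 0.02 by limma). The uncalled Fech probe set changed sign as deposited (-0.11), after quantile normalization (-0.03), with a constant of 16 (-0.06), with the bright controls (-0.01) or array set (-0.04) as a term, in array set 2 (-0.02), and without MLL-AF1p_801 (-0.02), MLL-AF10_805A (-0.02) or normal mouse 2 (-0.10), and ran up to 0.07 with 1 array left out. The uncalled Sptb probe set was -0.09 without normal mouse 2 and ran up to 0.41. The cause of these changes was not tested. Array set 1 holds no normal array. No paired analysis was possible because the replicate labels are mouse numbers that the groups do not share.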
